A study of Mus musculus with 9 samples.

Results

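Interleukins are secreted signalling proteins of the immune system, and most act through receptors built from several chains on the surface of a responding cell. The transcripts described here are those of all genes in the deposited tables whose symbol starts with Il followed by a digit, with 1 cytokine gene of the IL-1 family left out (not analysed here). The rule found 70 members among 23747 genes, and every member had at least 1 unique molecular identifier (UMI, the tag that marks a single captured transcript). By role, 26 members encode ligands, 35 receptor chains, 3 decoy receptors, 2 antagonists, 2 receptor-like proteins of neurons and 1 an enzyme (Il4i1), while 1 is a long non-coding antisense transcript. By family, 15 belong to the IL-1 family, 15 to the common gamma chain and IL-4 group, 15 to the gp130 and IL-12 group, 9 to the IL-10 family, 9 to the IL-17 family, 3 to the beta common group and 4 to none of these. Although many, they are rare, and their 178312 UMIs made up 0.132% of all UMIs.

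The data are single-nucleus RNA sequencing (sNuc-seq) of heart tissue from below the ligation site of 9 C57BL/6 mice, supplied at 8 weeks of age, with 3 mice in each of 3 groups. Sham mice were given vehicle by gavage for 7 days and were then operated on with the needle alone. I/R mice had the same vehicle and then myocardial ischemia-reperfusion (I/R), in which the left anterior descending coronary artery was tied for 30 min and reopened for 24 h. SBP mice were given Shexiang Baoxin Pill (a herbal preparation of traditional Chinese medicine, labelled MUSKARDIA and abbreviated SBP) for the 7 days before the same operation. No group carried a transgene, and each library came from 1 mouse. The libraries held 4576 to 6418 nuclei and 10329520 to 18205985 UMIs, with a median of 1540 to 2031 UMIs per nucleus.

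The members belong to a few receptor systems. In the IL-1 family, a ligand is bound by a specific chain such as Il1r1, the signalling receptor for IL-1, which then recruits the shared chain Il1rap. The second IL-1 receptor, Il1r2, binds the ligand without passing a signal, and the antagonist Il1rn occupies Il1r1 without activating it. IL-6 binds Il6ra and then gp130, which Il6st encodes and which passes signals for the whole family through JAK kinases and STAT factors. IL-4, IL-7, IL-13 and IL-15 use Il4ra, Il7r, Il13ra1 and Il15ra, most of them with the common gamma chain Il2rg, and IL-17 acts through Il17ra. In the injured heart these systems are known for the recruitment of leukocytes, for the activation of fibroblasts and for the resolution of inflammation.

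Nuclei were grouped by the genes they expressed, with all members kept out of the clustering, and the clusters were named from marker genes. A name means only that the nuclei look like that type. The deposited tables hold 49171 nuclei, fewer than the study states after quality control, and how they were chosen is not given in the sources used here. There were 14157 fibroblasts, 13440 endothelial cells, 10531 cardiomyocytes, 9028 myeloid cells (macrophages and monocytes with granulocyte-like nuclei), 770 T cells, 530 dendritic cells, 333 B cells, 132 smooth muscle cells or pericytes and 124 Schwann cells. Ttn had a UMI in 99.7% of cardiomyocyte nuclei but also in 67.9% to 79% of the nuclei of every other type, so levels tell the types apart better than detection, with 15009 CPM of Ttn in cardiomyocytes and 701 to 4585 in the others. The T cell cluster also held nuclei with natural killer markers, Ncr1 in 11.2% and Klrk1 in 35.5% of nuclei, beside Skap1 in 90% and Themis in 45.8%. The myeloid share of nuclei was 10.8% ± 2.95 (SD, n = 3) for sham hearts, 25.8% ± 7.59 for I/R and 17.2% ± 7.92 for SBP hearts, and that of cardiomyocytes was 26.8% ± 2.49, 19% ± 2.68 and 19.1% ± 0.425. A myeloid cluster of 1202 nuclei led by Acod1 and Fpr1 came mostly, with 1027 nuclei, from I/R replicate 2. These are the nuclei called granulocyte-like, a name that rests on 3 of 6 neutrophil markers found in over 10% of them. The leading genes of the cluster held none of the 6. Of 48881 barcodes, 290 occurred in 2 libraries and 0 in 3.

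Levels are given in CPM, the UMIs of a transcript scaled to the usual common total, in the summed nuclei of a mouse and cell type, and 46 members with at least 100 UMIs in all were ranked across 7 cell types. The type with the highest mean level was the T cell for 10 of these members, the fibroblast for 9, the myeloid cell for 9, the B cell for 7, the endothelial cell for 5, the dendritic cell for 5 and the cardiomyocyte for 1. For 12 of the 46 the leading type was above the next in every mouse. B cell means rest on 7 mice, and some B cell leads rest on very few UMIs. Il1rapl2, for example, led there at 5.97 CPM, although B cells held 0.651% of its 307 UMIs. CPM is not divided by transcript length, so levels are compared between cell types for the same transcript, and the order of different transcripts within a type is one of UMIs.

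**Figure D1:**
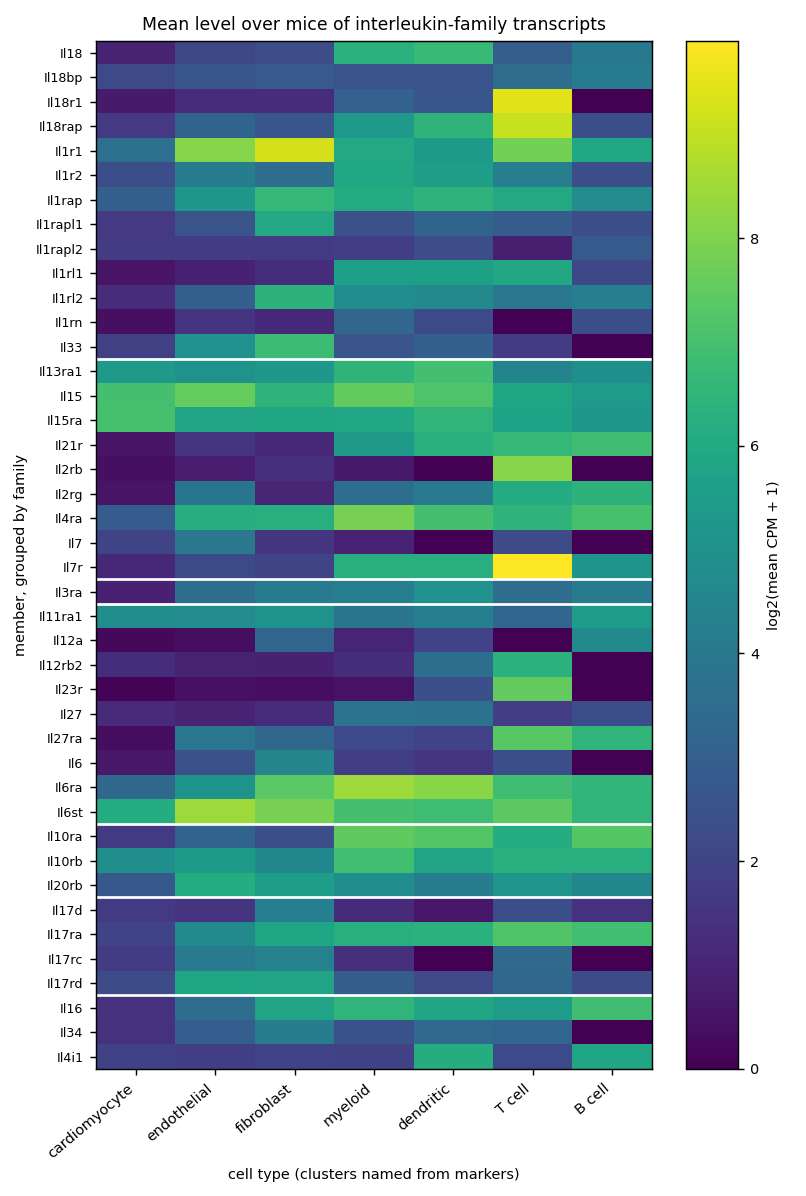
Heat map of the level of the members tested in at least 1 cell type, as log2 of the mean CPM over mice plus 1 (colour), with members in rows grouped by family and 7 cell types in columns. Il1r1 is brightest in fibroblasts (616 CPM), Il6ra in myeloid cells (351 CPM) and Il7r in T cells (955 CPM), while the cardiomyocyte column is brightest for Il15ra (129 CPM) and Il15 (125 CPM).

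The ligands Il33, Il6 and Il17d and the receptors Il1r1 and Il1rl2 were highest in fibroblasts. Il33, an alarmin released from damaged cells, stood at 108 ± 42.8 CPM (SD over 9 mice) in fibroblasts and 31.6 ± 9.13 in endothelial cells, and fibroblasts were higher in 9 of 9 mice. Il6 averaged 21.7 CPM in fibroblasts and 4.47 in endothelial cells, with fibroblasts higher in 6 of 9 mice. Il1r1 averaged 616 ± 261 CPM in fibroblasts, 271 ± 75.2 in endothelial cells, 227 ± 181 in T cells, 61.9 in myeloid cells and 11.2 ± 5.81 in cardiomyocytes. Fibroblasts exceeded endothelial cells in 9 of 9 mice, whereas endothelial and T cells overlapped (higher in 7 of 9). Il17d, a ligand of the IL-17 family, averaged 18.6 ± 12.6 CPM in fibroblasts and 4.21 in the next type, T cells, again with fibroblasts higher in 9 of 9. Il1rl2, the receptor chain for IL-36, stood at 84.5 ± 17.3 CPM in fibroblasts and 27 ± 20.9 in myeloid cells.

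Within fibroblasts, Il6, Il33 and Il1r1 were highest, pooled over mice, in the cluster with Tnc among its leading genes, the gene of the matrix protein tenascin-C. That cluster held 2, 4 and 3 nuclei in the sham mice, 495, 424 and 157 in the I/R mice and 296, 323 and 181 in the SBP mice. Pooled over mice, it carried Il6 at 85.5 CPM (20.7 to 235 in the 6 mice with enough nuclei), whereas no other cluster exceeded 10.4 CPM. Il33 stood at 263 CPM in the Tnc cluster and at 61.8 to 72.8 CPM in the other fibroblast clusters. Il1r1 reached 1414 CPM there and 260 to 574 CPM in the others. Because groups differed in level and in cluster make-up, the same levels were read within the I/R mice, in clusters with 20 nuclei or more of a mouse. There Il6 ranged from 48.6 to 235 CPM by mouse in the Tnc cluster and from 0 to 24.3 in the others, Il33 from 186 to 360 against 24.4 to 91, and Il1r1 from 1256 to 1670 against 332 to 1025. Il17d stood at 2.25 to 4.74 CPM in the Tnc cluster of the I/R mice, within its range of 0 to 25.6 in the others, and Il1rl2 stood at 82.1 CPM there, pooled over mice, within its range of 74.9 to 86.9 in the others. The clusters were formed without any member, so these levels played no part in their definition, although they are given as a description without a test.

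Endothelial cells led for the gp130 gene Il6st and for the ligand Il7. Il6st averaged 350 ± 64 CPM in endothelial cells and 234 ± 43.3 in fibroblasts (higher in 8 of 9 mice), against 68.6 ± 14 in cardiomyocytes, the lowest of the types compared. Among endothelial clusters, the one led by Npr3, an endocardial marker, carried the most Il6st with 644 CPM. Il7, the survival factor for lymphocytes, averaged 14.2 ± 4.91 CPM in endothelial cells and stood at 141 CPM in the cluster led by Mmrn1 and Reln, which are markers of lymphatic endothelium. Il15, which sustains natural killer and memory T cells, was spread more widely, with 186 ± 26.8 CPM in endothelial cells, 181 ± 46.8 in myeloid cells, 142 ± 85.7 in dendritic cells, 125 ± 54.3 in cardiomyocytes and 85.6 in fibroblasts. Endothelial and myeloid cells could not be ordered, since endothelial cells were higher in 5 of 9 mice. Its receptor chain Il15ra was the 1 member that led in cardiomyocytes, at 129 ± 25.3 CPM against 88.7 ± 72.4 in dendritic cells (higher in 8 of 9 mice).

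The nuclei named dendritic cells carried Ciita in 48.3%, Flt3 in 38.3% and Clec9a in 21.7%, but also the macrophage markers Mrc1 in 44.3%, Adgre1 in 30.9% and Csf1r in 27%, and the part of these markers in the dendritic levels was not tested. Il6ra averaged 351 ± 56 CPM in myeloid cells, 281 ± 75.5 in dendritic cells, 164 ± 59.4 in fibroblasts and 9.13 in cardiomyocytes, and the first 2 types overlapped (6 of 9 mice). Il4ra averaged 231 ± 143 CPM in myeloid cells, with B cells (128 ± 66) and dendritic cells (127) close together behind them. Il10ra, a chain of the receptor for the anti-inflammatory IL-10, stood at 177 ± 46.4 in myeloid cells, 154 ± 102 in B cells and 153 ± 56.6 CPM in dendritic cells, which overlapped. Il1rl1, the receptor for IL-33, averaged 60.7 ± 50.6 in T cells, 48.9 ± 37.3 in dendritic cells and 47.5 ± 38.5 CPM in myeloid cells, also without an order. T cells stood clear of all other types for Il7r (955 ± 232 against 74 ± 70.7 CPM in myeloid cells), for Il18r1 (700 ± 238 against 7.57 ± 2.88 in myeloid cells) and for its partner Il18rap (538 ± 153 against 86.1 ± 76.7 in dendritic cells), each in 9 of 9 mice. Il18, the ligand of those last chains, stood at 104 ± 48.7 CPM in dendritic and 78.1 ± 14.3 in myeloid cells.

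The small cell types could be read only as pooled counts. Il34, a ligand of the CSF-1 receptor that sustains macrophages, stood at 229 CPM (193 UMIs, exact 95% interval 197 to 263) in smooth muscle cells and pericytes and at 126 CPM (93.5 to 165) in Schwann cells, against 16.7 ± 8.95 CPM in fibroblasts. The nuclei named smooth muscle cells and pericytes carried Notch3 in 92.4% and Rgs5 in 72.7% but also the fibroblast markers Dcn in 93.2% and Pdgfra in 59.1%, with a median of 4281 UMIs before called doublets were removed, and whether doublets remain among them was not tested. Schwann cells also held Il1rap at 332 CPM (279 to 393). The intervals cover counting error only.

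The first comparison, I/R against sham, asks how 24 h of reperfusion changed these transcripts. A member was called when limma gave an adjusted p (Benjamini-Hochberg, over all genes tested) of at most 0.05 with a log2 fold change over 0.25 in size, on the log2(CPM + 1) scale. In sums over all nuclei of a mouse, 47 members passed the filter on low values and 23, with 1 to 125 UMIs each, did not. Of the 47, 13 were called higher and 1 lower (29.8%), beside 11.4% of all genes tested. The median log2 fold change was 0.34 over the members tested, with 30 of 47 above 0, and -0.03 over all genes. In such sums, fewer cells of a type and less RNA per cell cannot be told apart. Scaling by total UMIs in place of TMM factors moved the median of all genes by 0.12, to 0.09, and raised the share of all calls that were higher from 52.4% to 71.6%. Of the members it called 14 higher and 1 lower.

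The receptor chain Il4ra had the smallest adjusted p in whole-heart sums. It stood at 24.8, 11.8 and 18.2 CPM in the sham mice, 76.7, 162 and 95.4 in the I/R mice and 74.9, 62.7 and 68.3 in the SBP mice, so that every sham mouse was below every other mouse. The log2 fold change was 2.53 ± 0.3 (SE; limma adjusted p = 0.00231). The IL-17 receptor chain Il17ra went from 17, 16.7 and 19.9 to 35.4, 49.5 and 43.1 CPM (1.2 ± 0.15, limma adjusted p = 0.00293), with 31.8, 36.9 and 33.1 in the SBP mice.

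Of the IL-1 receptors, Il1r1 stood at 125, 93.4 and 93.7 CPM in sham, 232, 369 and 240 in I/R and 289, 232 and 225 in SBP mice (1.4 ± 0.2, limma adjusted p = 0.00548). The decoy Il1r2 was almost absent from sham hearts at 1.56, 0.362 and 0.19 CPM and reached 9.84, 74 and 28.1 in I/R and 20.8, 8.95 and 10.2 in SBP mice (4.16 ± 0.62, limma adjusted p = 0.00591). The shared chain Il1rap moved less, from 26.5, 36.6 and 28.9 to 49, 52.3 and 48 CPM, with 44.2, 48.9 and 51.8 in the SBP mice (0.69 ± 0.14, limma adjusted p = 0.0163). In all 3 receptor chains the sham and I/R mice did not overlap.

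Among the ligands, Il6 stood at 0.52, 0 and 0.126 CPM in sham, 6.68, 31 and 5.58 in I/R and 8.4, 2.74 and 5.79 in SBP mice (3.3 ± 0.56, limma adjusted p = 0.00967). Il33 stood at 20.3, 20.3 and 20 CPM in sham, 48.5, 43.7 and 27.5 in I/R and 38.2, 29.1 and 52.1 in SBP mice (0.91 ± 0.24, limma adjusted p = 0.0396). Il18 stood at 5.72, 9.49 and 8.41 against 23, 24.1 and 10.4 CPM, and at 10.8, 13.5 and 9.31 in the SBP mice (1.12 ± 0.31, limma adjusted p = 0.0444). In each of these ligands all sham mice were below all I/R mice, although I/R replicate 3 exceeded the highest sham mouse for Il18 by little. Il17d was the 1 member called lower, from 9.98, 9.49 and 9.1 to 3.16, 1.86 and 3.02 CPM (-1.54 ± 0.21, limma adjusted p = 0.00405). It stood at 3.79, 5.24 and 5.79 CPM in the SBP mice.

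The other calls in whole-heart sums were Il18rap, Il6ra, Il1f9, Il31ra and Il1rn. Il18rap went from 4.16, 5.79 and 7.46 to 14.6, 32.5 and 13.7 CPM (14.5, 14.8 and 10.3 in SBP mice; limma adjusted p = 0.0167). Il6ra went from 75.5, 51.9 and 77.6 to 102, 129 and 135 CPM (88.3, 106 and 96.2 in SBP mice; limma adjusted p = 0.0191). The other 3 were rare in every mouse. Il1f9, an IL-36 ligand, stood at 0.104, 0.0724 and 0.253 CPM in sham, 1.66, 5.78 and 1.31 in I/R and 1.36, 0.513 and 0.807 in SBP mice (1.6 ± 0.36, limma adjusted p = 0.0246). Il31ra, the receptor chain for IL-31, stood at 0.624, 0.435 and 0.569 against 1.45, 1.79 and 1.37 CPM, with 1.06, 1.14 and 0.66 in SBP mice (0.72 ± 0.17, limma adjusted p = 0.0282), and shares its strand with an overlapping gene, which makes its count uncertain. Il1rn stood at 0.312, 0.0724 and 0.126 against 1.92, 7.7 and 1.14 CPM, with 1.89, 3.25 and 2.13 in SBP mice (1.7 ± 0.44, limma adjusted p = 0.0365).

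The calls of Il4ra, Il17ra, Il17d, Il1r1, Il1r2 and Il6 held when any 1 library was left out. The others did not: the adjusted p rose to 0.0604 for Il18rap without sham replicate 1, to 0.0665 for Il6ra without I/R replicate 2, to between 0.0676 and 0.0739 for Il1f9 without any 1 sham mouse, to between 0.0569 and 0.066 for Il1rap (sham replicate 1 or 3 or I/R replicate 2 left out), and to as much as 0.0906 for Il31ra, 0.107 for Il1rn, 0.126 for Il33 and 0.147 for Il18, which lost their calls in 4, 5, 6 and 8 of 9 such fits. Without the Acod1 and Fpr1 cluster, the adjusted p was 0.0587 for Il1f9, 0.0507 for Il6ra and 0.183 for Il18.

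Several well known members were not called in whole-heart sums. Il15 stood at 153, 205 and 168 CPM in sham, 149, 84.9 and 85.7 in I/R and 100, 137 and 114 in SBP mice (-0.76 ± 0.23, limma adjusted p = 0.0587). Il16, a chemoattractant for CD4+ cells, stood at 22.3, 34.5 and 26.7, then 18.3, 24 and 20.7, then 29.8, 23.7 and 29 CPM, and Il34 at 16.9, 7.97 and 8.34, then 8.18, 6.33 and 6.32, then 7.87, 7.75 and 5.94 CPM. In both of them the sham and I/R mice overlapped. Il6st stood at 161, 169 and 116 CPM in sham, 162, 164 and 199 in I/R and 173, 159 and 182 in SBP mice, and these overlapped too. The anti-inflammatory Il10 and the gp130 ligand Il11 were too rare to test, with 0.104, 0.507 and 0.379 CPM of Il10 in sham and 0.828, 1.17 and 0.684 in I/R mice (0.151, 0.513 and 0.293 in SBP mice), and with 0.727, 0.29 and 0.316 CPM of Il11 in sham, 0.518, 0.481 and 0.513 in I/R and 0.53, 0.513 and 0.66 in SBP mice.

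The same comparison was then made within cell types, where 17 of the 42 members tested were called in at least 1 type (40.5%), beside 20.8% of all genes tested in a type. Of the 17, 8 were not called in whole-heart sums (19% of the 42), beside 12.6% of all genes. Il1r2 and Il4ra were called higher in 4 types, Il18rap in 3 and Il17ra in 2.

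**Figure D2:**
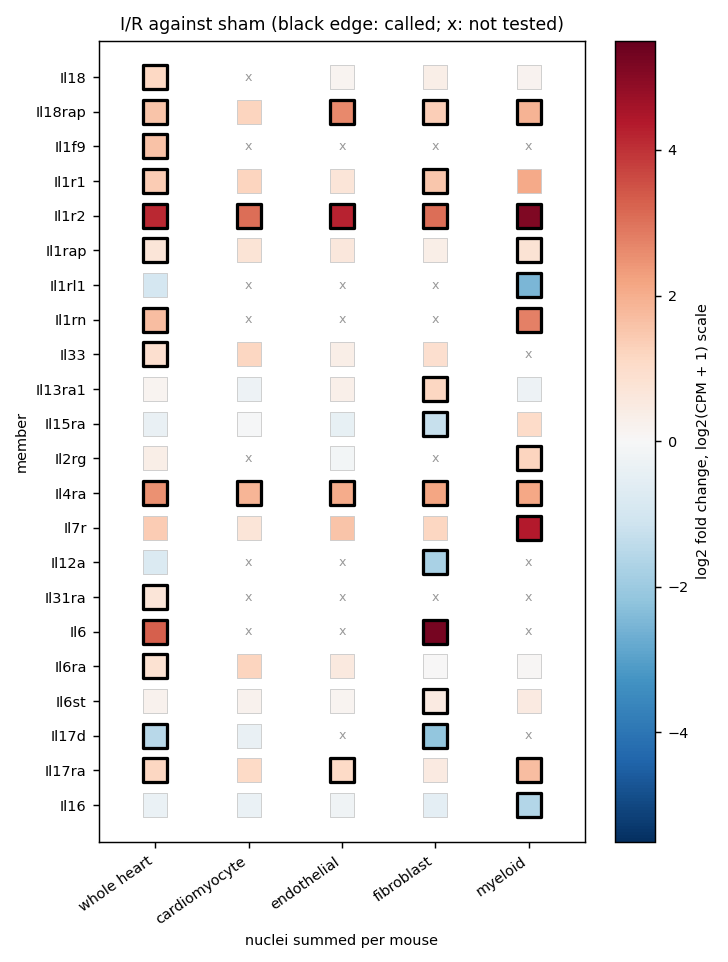
Log2 fold change on the log2(CPM + 1) scale (colour, red higher in I/R) of the 22 members called in at least 1 fit of I/R against sham, for whole-heart sums and 4 cell types, with called values edged in black and untested ones marked x. Il1r2 and Il4ra are red and edged in all 5 columns, Il6 is edged in whole-heart sums and fibroblasts (5.25), and Il15ra, Il17d and Il12a are blue and edged in fibroblasts.

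In fibroblasts, 10 of 31 members tested were called (32.3%), 7 higher and 3 lower, beside 11.6% of all genes tested, and 14 had an unadjusted p under 0.05. Of all genes tested, 25.5% had such a p. The median log2 fold change of the members was 0.33, against -0.01 over all genes. Il6, the ligand that opens the acute phase response, had 0 UMIs in all 3 sham mice. It stood at 24, 99.6 and 20.7 CPM in the I/R mice (102, 355 and 87 UMIs) and at 25.5, 8.6 and 16.8 CPM in the SBP mice (91, 36 and 65 UMIs). A count of 0 over the sham group allows up to 3 UMIs, or 0.37 CPM. With UMIs pooled over mice, Il6 was then at least 126-fold higher in I/R and at least 44.6-fold higher in SBP fibroblasts. These bounds cover counting error of the sham count only, not the spread between mice. I/R replicate 2 held 355 of the 544 I/R UMIs, and without it the bound for I/R was 62.5-fold. Without SBP replicate 1 the bound for SBP was 34.1-fold. limma gave an adjusted p of 0.000269 for I/R, and leaving out any 1 library kept it at or below 0.00262. In the I/R mice 82.2% of all Il6 UMIs (78.7% to 88.8% by mouse) lay in fibroblasts.

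Because Il6 had the largest log2 fold change of the members called in fibroblasts, the 250 bases before its start (GENCODE gene start and RefSeq promoter, GRCm38.p6, chr5:30012864-30013113, plus strand) are shown with matches to known motifs in capitals.

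Il6: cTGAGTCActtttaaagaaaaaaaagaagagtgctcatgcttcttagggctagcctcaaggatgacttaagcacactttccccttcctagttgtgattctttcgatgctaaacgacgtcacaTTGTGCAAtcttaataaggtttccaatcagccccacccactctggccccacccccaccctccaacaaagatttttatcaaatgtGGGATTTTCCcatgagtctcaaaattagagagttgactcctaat

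The capitals mark an NF-kB match (GGGA, any base, TT, any base, CC) 44 to 35 bases, a C/EBP match (TTGCNNAA, here on the minus strand) 128 to 121 bases and an AP-1 match (TGANTCA) 249 to 243 bases before the start. Both strands were searched, together with a STAT motif (TTCNNNGAA). Of 32851 RefSeq promoters of this length, 0.98% held the NF-kB motif, 6.75% the AP-1 motif, 9.56% the C/EBP motif and 7.02% the STAT motif. Of the 69 promoters of the 55 members that the table holds, 3, 11, 13 and 8 did. A match describes the letters only and was not tested as a site of binding.

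Il1r1, the receptor through which IL-1 activates fibroblasts, was higher in every I/R fibroblast sum. It stood at 317, 283 and 293 CPM in sham, 807, 957 and 790 in I/R and 768, 785 and 548 in SBP mice. The means were 297 ± 17.3, 851 ± 92.2 and 701 ± 132 CPM, a 2.86-fold difference between I/R and sham (log2 1.51 ± 0.16, limma adjusted p = 0.000232). The I/R effect on Il1r1 came without a called change of its partner Il1rap in these nuclei (log2 0.36, limma adjusted p = 0.256). The gp130 gene Il6st stood at 185, 206 and 201 CPM in sham, 327, 246 and 273 in I/R and 216, 225 and 230 in SBP mice (0.51 ± 0.14, limma adjusted p = 0.0349). Il6ra stood at 174, 108 and 176 CPM, then 62, 189 and 280, then 177, 149 and 163, with no difference in mean between sham and I/R (log2 0 ± 0.46).

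The receptor chains Il4ra and Il13ra1 of type 2 cytokines were also higher. Il4ra went from 36.8, 12.3 and 28.2 to 87.9, 147 and 105 CPM, with 106, 62.6 and 70.6 in SBP mice (2.19 ± 0.36, limma adjusted p = 0.00417). Il13ra1, which pairs with Il4ra to bind IL-13, went from 28.2, 16.2 and 27.1 to 42.2, 71 and 53.6 CPM, with 35.9, 38 and 32.7 in SBP mice (1.19 ± 0.24, limma adjusted p = 0.00688). In both, no I/R mouse overlapped a sham mouse.

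The decoy Il1r2 stood at 2.69, 0.722 and 0.696 CPM in sham, 9.43, 28.9 and 20.3 in I/R and 19.6, 6.45 and 5.93 in SBP mice (3.09 ± 0.51, limma adjusted p = 0.00317). Il18rap stood at 1.79, 3.25 and 1.74, then 5.66, 8.98 and 7.15, then 10.4, 6.21 and 2.58 CPM (1.35 ± 0.4, limma adjusted p = 0.0492). Both are known mainly from leukocytes, and markers of leukocytes moved with them in fibroblast sums. The 6 neutrophil markers, each with a UMI, summed to 10.5 to 43.5 CPM in sham and 65.8 to 271 CPM in I/R fibroblasts, where 3 of 5 tested were higher, and myeloid markers summed to 258 to 549 and 336 to 696 CPM. As a share of the myeloid level in the same I/R mouse, Il1r2 in fibroblasts came to 10.5% to 50%, Il18rap to 7.96% to 31.5% and Il4ra to 28% to 46.1%, neutrophil markers to 15% to 28.1% and myeloid markers to 5.83% to 13.5%. Their part in the results for Il1r2, Il18rap and Il4ra was not tested. The fibroblast level of Il1r1 was 302% to 2135% of the myeloid level.

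Of the 3 members called lower, Il17d fell from 32.3, 34.3 and 37.2 to 8.72, 4.77 and 8.11 CPM, with 10.9, 12.9 and 17.8 in SBP mice (-2.15 ± 0.25, limma adjusted p = 0.000305). Il15ra fell from 76.7, 96.7 and 80.4 to 32.3, 35.1 and 37.2 CPM, with 41.8, 44.2 and 49 in SBP mice (-1.25 ± 0.15, limma adjusted p = 0.000387). Il12a, a subunit of IL-12 and IL-35, went from 11.7, 24.2 and 6.26 to 5.19, 1.12 and 3.34 CPM, with 5.05, 7.41 and 10.6 in SBP mice (-1.78 ± 0.49, limma adjusted p = 0.0387). For Il17d and Il15ra the 3 groups did not overlap at all, with SBP between sham and I/R in every mouse. How many of all genes showed this order was not counted, and limma called neither member in SBP against I/R. Cardiomyocyte markers were also lower, summing to 4643 to 5450 CPM in sham and 1507 to 2269 CPM in I/R fibroblasts. Their part in the lower levels of Il17d, Il15ra and Il12a was not tested. In cardiomyocytes themselves Il17d stood at 1.32 to 3.82 CPM, below fibroblasts, and Il15ra at 90 to 174 CPM, above the fibroblasts of the same mouse in 9 of 9 mice.

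Il33 was below the threshold in fibroblasts, at 58.3, 74.3 and 74.5 CPM in sham, 183, 147 and 82.5 in I/R and 103, 96.3 and 152 in SBP mice (0.92 ± 0.27, limma adjusted p = 0.0518), although all sham mice were below all others. Il34 overlapped, with 37.7, 17.3 and 9.39 CPM in sham, 19.1, 11.2 and 10.3 in I/R and 12.1, 21.7 and 11.9 in SBP mice. Sham and I/R fibroblasts lay largely in different clusters, since 1 cluster held 1039, 974 and 1002 sham nuclei but 214, 18 and 6 I/R nuclei, another 38, 787 and 1424 I/R nuclei, and the Tnc cluster almost no sham nuclei. Leaving out 1 library ended the calls of Il18rap in 7, Il6st in 6 and Il12a in 5 of 9 fits, with adjusted p up to 0.163 (without I/R replicate 2), 0.102 (without sham replicate 1) and 0.134 (without I/R replicate 2). The same calls were lost under 6, 3 and 4 of 9 other settings (limma adjusted p up to 0.0981, 0.0976 and 0.0822).

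**Figure D3:**
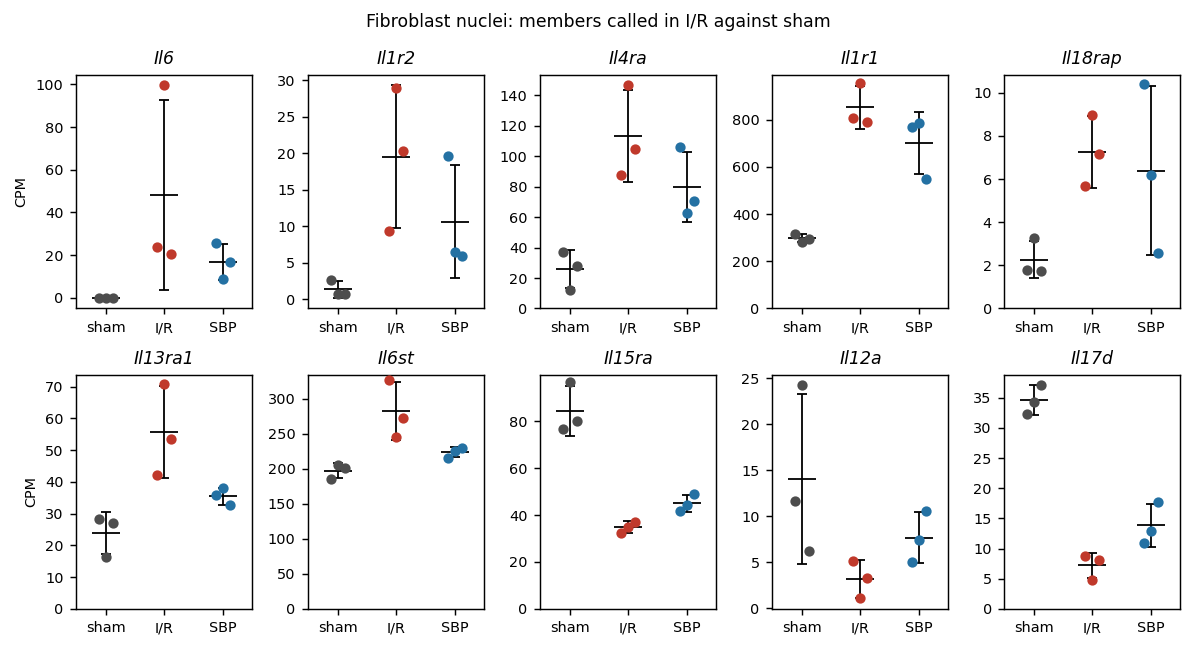
CPM in fibroblast nuclei (y axis, linear, a scale for each panel) of the 10 members called in I/R against sham, with 1 point per mouse, a bar at the mean and whiskers of 1 SD (n = 3) for sham, I/R and SBP. Il6 lies at 0 in the sham mice and at 8.6 to 99.6 CPM in the others. Il17d and Il15ra show SBP mice between the other 2 groups, an order that was not counted over all genes, and limma called neither in SBP against I/R.

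In myeloid cells, 10 of 26 members tested were called (38.5%), 8 higher and 2 lower, beside 19.1% of all genes tested, and 17 had an unadjusted p under 0.05. Of all genes tested, 33.2% had such a p. The median log2 fold change was 0.56 over the members and 0.1 over all genes. Il7r had the smallest adjusted p. It stood at 5.45, 2.87 and 2.32 CPM in sham, 117, 80.3 and 73.1 in I/R and 91.2, 225 and 68.3 in SBP mice, with no overlap between sham and the others (log2 4.36 ± 0.41, limma adjusted p = 0.000109). The ratio of the I/R mean to the sham mean was 25.4. T cells held 81.7% of all Il7r UMIs in the sham mice and 20.2% in the I/R mice, while the myeloid share went from 2.85% to 65.4%. T cell levels themselves were 1049, 750 and 994 CPM in sham, 1013, 622 and 1084 in I/R and 1411, 910 and 759 in SBP mice. By cluster, myeloid Il7r stood at 184 CPM in the cluster led by Gpnmb and Trem2 and at 4.6 CPM in the cluster led by Cd163 and Timd4, which mark resident macrophages.

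Il17ra and Il4ra, both receptor chains, were higher again. Il17ra stood at 32.7, 24.9 and 23.2 CPM in sham, 87, 103 and 79.4 in I/R and 77.7, 106 and 122 in SBP mice (1.71 ± 0.21, limma adjusted p = 0.000226). Il4ra stood at 118, 48.8 and 67.2 CPM in sham, 191, 460 and 375 in I/R and 275, 199 and 345 in SBP mice (2.12 ± 0.39, limma adjusted p = 0.00609). Neither overlapped between sham and I/R. The common gamma chain Il2rg ranged from 3.63 to 7.66 CPM in sham, 8.02 to 23.6 in I/R and 9.51 to 12 in SBP mice (1.21 ± 0.39, limma adjusted p = 0.0447), and it overlaps another gene on its strand.

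The decoy receptor and the antagonist of IL-1 were higher as well. Il1r2 stood at 5.45, 0.957 and 0 CPM in sham, 18.9, 275 and 99.4 in I/R and 80.2, 20 and 44.3 in SBP mice (5.14 ± 1.05, limma adjusted p = 0.0137). The antagonist Il1rn had 2 UMIs in all sham mice together (0, 0.957 and 0.772 CPM) and stood at 5.53, 26.4 and 5.35 CPM in I/R and 10.1, 13.8 and 15 in SBP mice (2.79 ± 0.57, limma adjusted p = 0.0052). From pooled counts, the ratio to sham was 16.2 (95% interval 4.38 to 136) for I/R and 18.2 (4.87 to 153) for SBP, intervals that cover counting error only. Without I/R replicate 2 the ratio for I/R was 7.63 (1.97 to 65.4). Il1rap stood at 45.4, 43.1 and 44 CPM in sham, 51.8, 95.8 and 92.7 in I/R and 70.1, 56.7 and 104 in SBP mice (0.79 ± 0.26, limma adjusted p = 0.0481), and Il18rap at 10.9, 13.4 and 12.4, then 18, 113 and 58, then 49, 20.7 and 53.3 CPM (1.93 ± 0.59, limma adjusted p = 0.0491).

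The other 2 calls were lower. Il1rl1, the IL-33 receptor, fell from 114, 90.9 and 84.9 to 18.6, 8.1 and 25.4 CPM, with 28.7, 19.7 and 36.8 in SBP mice (-2.53 ± 0.35, limma adjusted p = 0.000735). Il16, which overlaps another gene on its strand, fell from 167, 138 and 114 to 35.2, 44 and 55.3 CPM, with 82.8, 49.5 and 111 in SBP mice (-1.62 ± 0.27, limma adjusted p = 0.00194). Sham mice were above every I/R and SBP mouse in both. B cell markers in myeloid sums moved the same way, from 656 to 701 CPM in sham to 52.1 to 140 in I/R mice (181 to 421 in SBP mice), and cardiomyocyte markers from 5650 to 6361 to between 1772 and 2715 CPM. Their part in the changes of Il1rl1 and Il16 was not tested.

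Neutrophil markers summed to 95.7 to 138 CPM in sham and 428 to 965 CPM in I/R myeloid cells, with 285 to 345 CPM in SBP mice, and 4 of 5 tested were higher. The Acod1 and Fpr1 cluster carried, pooled over mice and so mostly from I/R replicate 2, Il1r2 at 367, Il4ra at 404 and Il1r1 at 332 CPM. In the 2 I/R and 2 SBP mice with 20 nuclei or more there, Il1r1 ranged from 54 to 364 and from 0 to 16.9 CPM, Il1r2 from 313 to 1035 and from 337 to 695 CPM, and Il4ra from 333 to 414 and from 33.7 to 471 CPM. Without that cluster, Il1r2 was still called higher (4.26, limma adjusted p = 0.00982), as were Il4ra (2.14), Il7r (4.75), Il17ra (1.46), Il1rn (2.47) and Il18rap (1.38), whereas Il1rap (0.47, limma adjusted p = 0.151) and Il2rg (0.97, limma adjusted p = 0.111) were not. Leaving out 1 library ended the calls of Il18rap in 7, Il2rg in 7 and Il1rap in 6 of 9 fits, with adjusted p up to 0.136 (without sham replicate 1), 0.207 and 0.164 (both without I/R replicate 2). The same calls were lost under 8, 6 and 7 of 10 other settings (limma adjusted p up to 0.0789, 0.117 and 0.196). Sham myeloid nuclei lay mostly in the Cd163 and Timd4 cluster (357, 623 and 752 nuclei), and the Gpnmb and Trem2 cluster held 6, 13 and 11 sham but 1739, 271 and 448 I/R nuclei.

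Members with high myeloid levels that were not called included Il6ra at 390, 250 and 397, then 321, 336 and 416, then 302, 334 and 408 CPM (log2 0.07, limma adjusted p = 0.842). Il18 stood at 67.2, 73.7 and 76.4, then 87.7, 104 and 63.3, then 92.9, 62 and 75.1 CPM (0.2, limma adjusted p = 0.532). Both overlapped between sham and I/R, although myeloid cells held 82.8% of the Il18 UMIs and 53.8% of the Il6ra UMIs in I/R hearts, against 66.8% and 36% in sham hearts. Il1r1 stood at 32.7, 21.1 and 7.72 CPM in sham, 40.7, 317 and 37 in I/R and 47.3, 27.5 and 26.3 in SBP mice (2.09, limma adjusted p = 0.128), so that I/R replicate 2 alone was far above the rest. Il10 was too rare to test, at 0, 6.7 and 3.09, then 2.53, 4.23 and 3.57, then 0.845, 1.31 and 2.25 CPM.

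**Figure D4:**
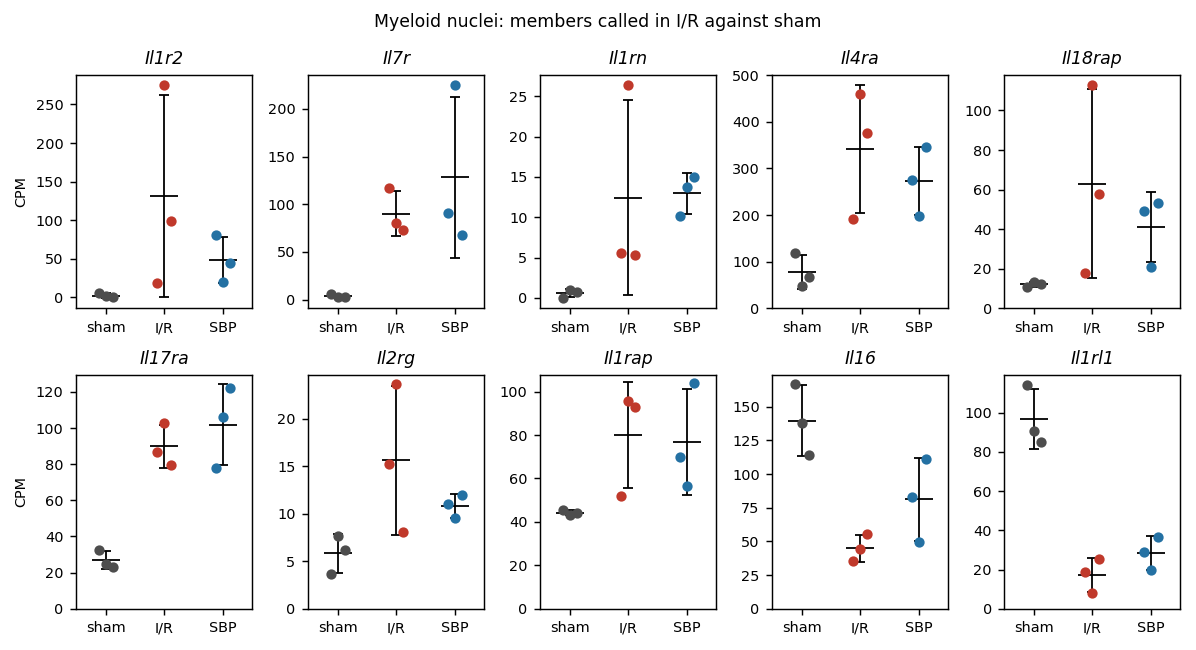
CPM in myeloid nuclei (y axis, linear, a scale for each panel) of the 10 members called in I/R against sham, with 1 point per mouse, a bar at the mean and whiskers of 1 SD (n = 3) for sham, I/R and SBP. Il7r and Il17ra are higher in every I/R and SBP mouse than in any sham mouse and Il1rl1 and Il16 lower, while I/R replicate 2 sets the top of the Il1r2 (275 CPM) and Il1rn (26.4 CPM) panels.

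Endothelial cells had 4 of 29 members tested called, all higher (13.8%), beside 3.2% of all genes tested, and 11 had an unadjusted p under 0.05. Of all genes tested, 17.8% had such a p. Il1r2 stood at 2.24, 0 and 0 CPM in sham, 10.9, 47.8 and 37.2 in I/R and 28.9, 12.4 and 13.7 in SBP mice (4.25 ± 0.61, limma adjusted p = 0.00904). Il18rap stood at 1.12, 0.973 and 2.44, then 9.57, 22.8 and 12.8, then 15.8, 4.61 and 4.03 CPM (2.64 ± 0.48, limma adjusted p = 0.0157). In both of these the sham mice lay below all others. Il4ra stood at 33.1, 16.9 and 30.6, then 67, 178 and 108, then 83.3, 53 and 61.6 CPM (2.03 ± 0.35, limma adjusted p = 0.0157), and Il17ra at 16.3, 14.6 and 16.7, then 24.6, 45.7 and 36.5, then 29.3, 20.7 and 25 CPM (1.08 ± 0.23, limma adjusted p = 0.0272).

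Neutrophil markers summed to 12.6 to 42 CPM in sham, 112 to 419 in I/R and 84.2 to 185 in SBP endothelial cells, where 3 of 5 tested were higher in I/R, and myeloid markers to 156 to 228 CPM in sham and 272 to 452 in I/R. As a share of the myeloid level in the same I/R mouse, Il1r2 came to 17.4% to 58%, Il18rap to 20.3% to 53.3%, Il4ra to 28.7% to 38.6% and neutrophil markers to 25.5% to 43.4%. The part of these markers in the endothelial results was not tested. Il18rap lost its call without sham replicate 2 (limma adjusted p = 0.0711) or I/R replicate 2 (0.0702), Il4ra without sham replicate 2 (0.0605) or 3 (0.0502), and Il17ra without any 1 sham mouse or I/R replicate 2 (0.0641 to 0.12).

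The members most abundant in endothelial cells were not called. Il6st stood at 419, 350 and 217 CPM in sham, 300, 339 and 416 in I/R and 343, 362 and 405 in SBP mice. Il1r1 stood at 221, 138 and 226, then 311, 384 and 246, then 337, 249 and 329 CPM (0.69, limma adjusted p = 0.116). Il15 stood at 196, 227 and 168, then 194, 164 and 137, then 177, 209 and 196 CPM. Of these, Il1r1 was higher in all I/R than in all sham mice, and the other 2 overlapped.

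Cardiomyocytes had 2 of 30 members tested called, both higher (6.67%), beside 0.822% of all genes tested, and 10 had an unadjusted p under 0.05. Of all genes tested, 14.2% had such a p. Il1r2 had 2 UMIs in the 3 sham mice together (0, 0.144 and 0.101 CPM) and stood at 4.16, 13.5 and 9.23 CPM in I/R and 3.81, 3.38 and 3.76 in SBP mice (3.08 ± 0.34, limma adjusted p = 0.00341). From pooled counts, the ratio to sham was 97.4 (95% interval 26.6 to 811) for I/R and 39.1 (10.4 to 330) for SBP, again for counting error only. Il4ra stood at 3.02, 1.44 and 1.82 CPM in sham, 8.17, 16.8 and 7.4 in I/R and 7.42, 7.35 and 4.51 in SBP mice (1.88 ± 0.33, limma adjusted p = 0.0263). Neither overlapped between sham and I/R.

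Both levels were small beside those of myeloid cells in the same I/R mice, 4.92% to 22.1% for Il1r2 and 1.97% to 4.28% for Il4ra. Neutrophil markers in cardiomyocytes came to 7.06% to 12.8% of their myeloid level and summed to 4.9 to 13.6 CPM in sham and 31 to 123 CPM in I/R mice, where 1 of 4 tested was called higher. Myeloid markers there summed to 42.4 to 52.1 CPM in sham and 59.2 to 114 in I/R mice, with 0 of 8 called. Fibroblast markers summed to 162 to 194 and 245 to 276 CPM, with 2 of 6 called higher. The part of these markers was not tested. The Il4ra call was lost without sham replicate 2 (limma adjusted p = 0.103), sham replicate 3 (0.131) or I/R replicate 2 (0.101). The most abundant members were not called: Il15ra stood at 129, 116 and 174, then 113, 123 and 161, then 90, 136 and 122 CPM, Il6st at 52.6, 73.3 and 54.5, then 56.9, 64.1 and 97.8, then 76.3, 73.2 and 68.4 CPM, and Il15 at 164, 205 and 166, then 163, 58.8 and 72, then 64, 142 and 87.6 CPM (-1 ± 0.37, limma adjusted p = 0.259). Sham and I/R mice overlapped for Il15ra and Il6st and did not for Il15. Most sham nuclei lay in 1 cardiomyocyte cluster (1211, 1347 and 1278 nuclei) and most I/R nuclei of replicates 2 and 3 in another (944 and 1196), whereas replicate 1 had 837 nuclei in the first and 238 in the second.

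Because Il1r2 and Il4ra were called higher in all 4 large cell types, their promoters (250 bases before the RefSeq start, GRCm38.p6) are shown, Il1r2 from chr1:40085843-40086092 and Il4ra from chr7:125552021-125552270, both on the plus strand. The RefSeq start of Il1r2 lies inside the GENCODE gene (chromosome 1, 40074079 to 40125231), which places this window within the annotated gene. The Il4ra window likewise runs past the GENCODE start of that gene (chromosome 7, 125552120), so its later part lies within it.

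Il1r2: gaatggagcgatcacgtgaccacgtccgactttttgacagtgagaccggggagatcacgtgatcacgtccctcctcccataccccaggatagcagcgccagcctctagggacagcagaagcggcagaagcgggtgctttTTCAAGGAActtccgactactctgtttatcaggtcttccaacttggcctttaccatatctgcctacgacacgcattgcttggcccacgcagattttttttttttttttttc

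Il4ra: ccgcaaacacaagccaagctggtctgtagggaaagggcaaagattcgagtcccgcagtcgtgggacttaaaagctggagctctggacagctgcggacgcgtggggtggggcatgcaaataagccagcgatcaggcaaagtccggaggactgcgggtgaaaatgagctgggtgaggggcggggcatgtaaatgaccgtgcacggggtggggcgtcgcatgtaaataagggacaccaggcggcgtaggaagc

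The capitals in Il1r2 mark a STAT match 111 to 103 bases before the start, and the Il4ra window held none of the 4 motifs searched. Il1r2 is the first of 6 receptor genes of the IL-1 family that lie in a row on the plus strand of mouse chromosome 1 (GRCm38), followed by Il1r1 (40225080 to 40317257), Il1rl2 (40324610 to 40367562), Il1rl1 (40429570 to 40465415), Il18r1 (40465552 to 40500854) and Il18rap (40515362 to 40551705). As given above, these neighbours were highest in different cell types, Il1r1 in fibroblasts and Il18r1 and Il18rap in T cells, and Il1rl1 and Il1r2 were called in opposite directions in the same myeloid sums.

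Dendritic and T cells gave 0 calls among 8 and 9 members tested with limma, beside 0% and 0.342% of all genes tested, and 1 and 4 members had an unadjusted p under 0.05. Of all genes tested, 13.1% and 9.97% had such a p. In T cells Il18r1 stood at 400, 503 and 504 CPM in sham, 1018, 904 and 929 in I/R and 582, 924 and 539 in SBP mice, with all I/R above all sham mice (1.02 ± 0.27, limma adjusted p = 0.139). Its partner Il18rap stood at 383, 446 and 595, then 404, 735 and 325, then 649, 727 and 579 CPM and overlapped. In dendritic cells Il4ra stood at 16.3, 23.9 and 77.4 CPM in sham, 146, 226 and 169 in I/R and 146, 193 and 145 in SBP mice (2.47 ± 0.63, limma adjusted p = 0.116), again without overlap. Il6ra stood at 163, 247 and 277, then 357, 162 and 325, then 318, 342 and 339 CPM there, Il10ra at 114, 112 and 177, then 214, 97 and 156, then 79.4, 247 and 178 CPM, and Il15 at 195, 231 and 277, then 176, 97 and 39, then 26.5, 90 and 145 CPM. These sums were small, with 57761 to 440465 UMIs per mouse in dendritic and 40444 to 227504 in T cells. In B cells, where 7 mice (1 of them I/R) had 20 nuclei or more, no member passed the filter. Il10ra stood there at 60.3, 87.4 and 59.2 CPM in sham, 234 in 1 I/R and 322, 209 and 103 in SBP mice, Il4ra at 181, 62.4 and 107, then 117, then 138, 52.3 and 240, and Il17ra at 60.3, 125 and 142, then 117, then 91.9, 288 and 0.

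**Figure D5:**
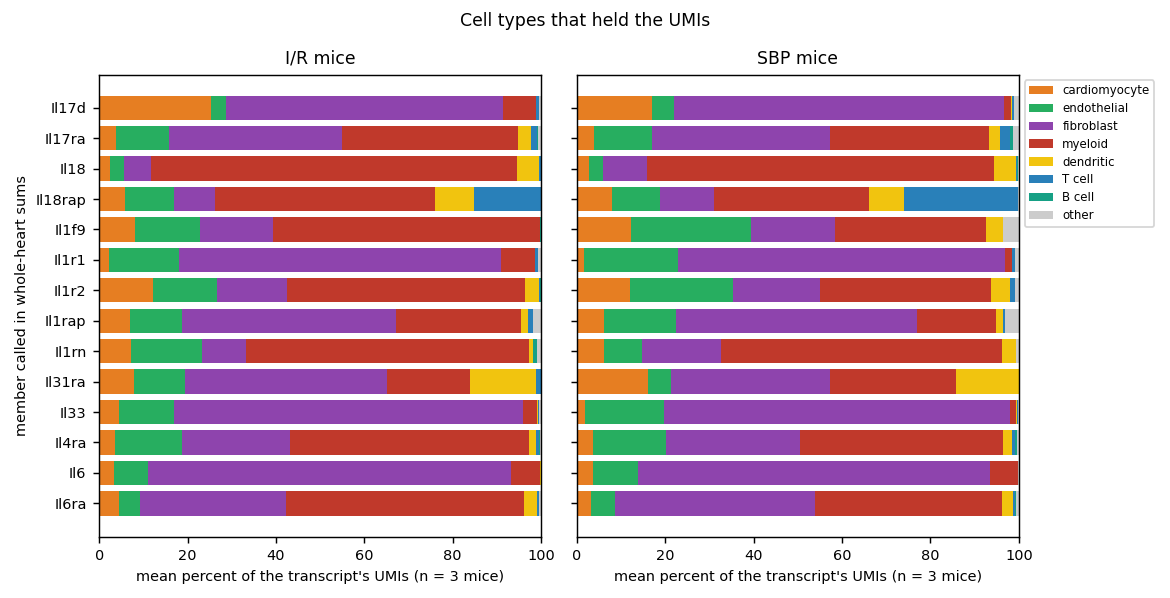
Share of a member's UMIs (x axis, mean percent over 3 mice) that lay in each cell type (colour), for the 14 members called in whole-heart sums, with I/R mice on the left and SBP mice on the right. In I/R mice fibroblasts held 82.2% of Il6, 79.1% of Il33 and 72.9% of Il1r1, and myeloid cells 82.8% of Il18 and 53.9% of Il4ra.

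Whether the effect of I/R differed between cell types was tested directly, as the difference of the log2 fold changes of 2 types, for 6 pairs of the 4 large types. On the log2(CPM + 1) scale, the myeloid rise of Il7r exceeded the change in each other type: the difference was -3.62 ± 0.3 for cardiomyocytes minus myeloid cells (limma adjusted p = 0.000425), -2.81 ± 0.3 for endothelial minus myeloid cells (0.00275) and -3.16 ± 0.39 for fibroblasts minus myeloid cells (0.00292). In I/R mice, Il7r came to 1.58% to 2.14% of its myeloid level in cardiomyocytes and 4.29% to 5.99% in endothelial cells. In fibroblasts it came to 3.84% to 6.84%. This scale understates changes at such low levels, and its part in the size of these differences was not tested. Il15ra had log2 fold changes of -1.25 in fibroblasts and 1.05 in myeloid cells, of which only the first was called. In myeloid cells, where sham and I/R mice overlapped, it stood at 52.7, 29.7 and 43.2 CPM in sham, 40.1, 147 and 105 in I/R and 47.3, 38.7 and 42 in SBP mice. The difference between these log2 fold changes, fibroblasts minus myeloid cells, was -2.3 ± 0.42 (limma adjusted p = 0.014), and against cardiomyocytes the drop in fibroblasts differed by 1.17 ± 0.26 (limma adjusted p = 0.0499).

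Il13ra1 differed in the same 2 pairs, by -1.49 ± 0.28 for cardiomyocytes minus fibroblasts (limma adjusted p = 0.0293) and 1.45 ± 0.29 for fibroblasts minus myeloid cells (0.0185). In cardiomyocytes it stood at 42.6, 47 and 49.9 CPM in sham and 42.4, 36.8 and 34.4 in I/R mice, and in myeloid cells at 107, 70.8 and 108 and 70, 71.5 and 95.9 CPM, while only in fibroblasts did it pass the threshold. Il17d differed by 1.74 ± 0.38 for cardiomyocytes minus fibroblasts (limma adjusted p = 0.0458) and Il2rg by -1.37 ± 0.28 for endothelial minus myeloid cells (0.0296). The level of Il17d in cardiomyocytes was low, as given above, where the log2(CPM + 1) scale understates changes, and the part of the scale in its difference was not tested. Of the members tested, 3 of 26 were called for cardiomyocytes minus fibroblasts, 1 of 19 for cardiomyocytes minus myeloid cells, 2 of 21 for endothelial minus myeloid cells and 3 of 20 for fibroblasts minus myeloid cells, beside 2.19%, 5.57%, 3.8% and 6.6% of all genes. No member was called for endothelial cells against cardiomyocytes (0 of 25, 0.0352% of all genes, 6 with an unadjusted limma p under 0.05) or fibroblasts (0 of 27, 0.586%, 8). Il1r2 and Il4ra were thus not shown to respond differently between any 2 of these types.

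The differences of Il7r, and that of Il15ra between fibroblasts and myeloid cells, held in every fit with 1 library left out in which they were tested. Against myeloid cells, Il7r was tested in only 6 of 9 such fits for cardiomyocytes and 6 of 9 for endothelial cells, and in 9 of 9 for fibroblasts. In the remaining fits it did not pass the filter on low values. Without 1 library the Il15ra difference against cardiomyocytes lost its call in 9 of 9 fits (limma adjusted p 0.0624 to 0.135), Il17d in 7 (up to 0.165, without I/R replicate 2), Il2rg in 6 (up to 0.085, without I/R replicate 2), Il13ra1 against cardiomyocytes in 4 (up to 0.119, without I/R replicate 2) and against myeloid cells in 2 (0.0535 without sham replicate 3, 0.0616 without I/R replicate 2).

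The second comparison, SBP against I/R, asks whether 7 days of SBP before the operation altered these transcripts. With limma, 0 of 47 members were called in whole-heart sums and 0 of 30, 29, 31, 26, 8 and 9 in cardiomyocytes, endothelial cells, fibroblasts, myeloid, dendritic and T cells. Over all genes tested 0% were called in each of them as well. An unadjusted p under 0.05 was reached by 5 members in whole-heart sums, 3 in cardiomyocytes, 6 in fibroblasts, 2 in myeloid cells and 0 in the other 3 types, and the adjusted p of each was 0.999 or 1. Over all genes tested that share was 4.53% in whole-heart sums, 2.12% in cardiomyocytes, 3.56% in fibroblasts, 4.05% in myeloid cells, 5.11% in endothelial cells, 2.13% in dendritic cells and 3.36% in T cells. The median log2 fold change of the members was -0.15 in whole-heart sums, with 15 of 47 above 0. Over all genes the median was 0, with 49.1% above 0.

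Fibroblasts had the most members under the unadjusted threshold among the cell types. Il17d stood 0.87 ± 0.25 higher on the log2 scale in SBP than in I/R mice (limma unadjusted p = 0.00442, adjusted p = 1) and Il15ra 0.36 higher, while Il13ra1 stood 0.6 lower and Il6st 0.32 lower. With the values given above, SBP and I/R mice did not overlap in these 4 transcripts, nor in Il1r1, where the highest SBP mouse (785 CPM) lay just below the lowest I/R mouse (790 CPM). These 5 of 31 members (16.1%) stand beside 8.41% of all genes tested whose SBP and I/R fibroblasts did not overlap, and limma called none of them. Il12a differed by 1.12 (0.69 without I/R replicate 2), Il6st by -0.21 without I/R replicate 1, and Il6 by -1.2 ± 0.54 (limma unadjusted p = 0.0496), and the value for Il6 was -0.5 without I/R replicate 2, the mouse with 99.6 CPM. The same I/R mice enter this comparison and the first, so the signs in the 2 are not independent.

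In other types, myeloid Il16 stood 0.79 ± 0.27 higher in SBP mice (limma unadjusted p = 0.0135) and myeloid Il15ra 0.99 lower, or 0.6 lower without I/R replicate 2 and 1.54 lower without I/R replicate 1, the 1 fit in which it was called (limma adjusted p = 0.0357). Cardiomyocyte Il33 was 1.09 lower, with 6.17, 5.91 and 2.43 CPM in I/R, 2.47, 1.91 and 0.752 in SBP and 1.51, 1.01 and 1.82 in sham mice, Il1r2 0.98 lower and Il6ra 0.71 lower. Without I/R replicate 2 the last 2 differences were -0.65 and -0.35, and myeloid Il16 was 0.52 higher without SBP replicate 3. Fibroblast markers in cardiomyocyte sums came to 162 to 194 CPM in sham, 245 to 276 in I/R and 187 to 227 in SBP mice. Their part in the cardiomyocyte Il33 difference was not tested. In whole-heart sums Il17d was 0.7 ± 0.21 higher (limma unadjusted p = 0.00713) and Il17rd 0.45 higher (0.28 without I/R replicate 1), whereas Il13ra1 was 0.33, Il31ra 0.38 and Il1f9 0.9 lower (0.41 without I/R replicate 2). Il4ra in whole-heart sums differed by -0.62 and was not called (limma unadjusted p = 0.0631).

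SBP against sham shares the sham mice with the first comparison, so both are given side by side only. Of the members tested, 5 were called in whole-heart sums, 6 in fibroblasts, 6 in myeloid cells, 2 in endothelial cells and 1 in cardiomyocytes, beside 3.34%, 6.07%, 14%, 2.2% and 0.14% of all genes, and with limma 0 in dendritic (0% of all genes, 2 members with an unadjusted p under 0.05) and T cells (0.285%, 0 members). Of all genes tested, 10.8% and 7.46% had such an unadjusted p in dendritic and T cells. With 1 library left out, the first 5 counts fell to as few as 0, 3, 4, 0 and 0. In fibroblasts Il6 differed by 4.05 on the log2 scale in SBP and 5.25 in I/R mice, Il1r1 by 1.22 and 1.51, Il4ra by 1.69 and 2.19, Il1r2 by 2.21 and 3.09, Il17d by -1.28 and -2.15 and Il15ra by -0.89 and -1.25. In myeloid cells Il7r differed by 4.7 and 4.36, Il17ra by 1.87 and 1.71, Il1rn by 3.19 and 2.79, Il4ra by 1.85 and 2.12, Il1r2 by 4.19 and 5.14 and Il1rl1 by -1.77 and -2.53. Il1rap was called in endothelial cells for SBP (0.85, limma adjusted p = 0.0212) and not for I/R (0.64, 0.0521), a difference that SBP against I/R did not call. Without sham replicate 3, the Il1rap call for SBP was lost too, since no endothelial member was then called.

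The partners through which these receptors signal were read from lists of other genes, beside the shares of all genes called in the same fits (11.4% in whole-heart sums, 19.1% in myeloid cells, 11.6% in fibroblasts, 3.2% in endothelial cells and 0.822% in cardiomyocytes). Among 10 gp130 family partners, Osmr, the receptor for oncostatin M, was called higher in I/R cardiomyocytes, where it ranged from 9.37 to 13.8 CPM in sham, 34.7 to 75 in I/R and 30.3 to 62.1 in SBP mice (2.03 ± 0.33, limma adjusted p = 0.0213). Its ligand Osm was called higher in myeloid cells, from 0 to 1.82 CPM in sham to 8.98 to 28.2 CPM in I/R mice (2.91, limma adjusted p = 0.00335), beside Clcf1 (2.2), while Ebi3 was lower (-1.53). In whole-heart sums 2 of 9 partners tested were called higher, Osm (1.67) among them, as was 1 of 6 in fibroblasts, and limma called 0 of 3 in endothelial cells and 0 of 1 in dendritic cells (1 and 0 with an unadjusted p under 0.05). Fibroblast markers in cardiomyocyte sums were also higher, with 162 to 194 CPM in sham and 245 to 276 in I/R mice. Their part in the Osmr result was not tested.

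Socs3, the feedback inhibitor that gp130 signalling induces, was the 1 SOCS gene called higher, and it was called in whole-heart sums and in all 4 large types. It ranged in whole-heart sums from 4.04 to 7.27 CPM in sham, 19 to 59.4 in I/R and 13.3 to 21 in SBP mice (2.32, limma adjusted p = 0.0078), and its log2 fold change was 2.96 in myeloid cells, 2.12 in fibroblasts, 2.04 in cardiomyocytes and 1.63 in endothelial cells. Of the 8 SOCS genes, Socs2 was lower in whole-heart sums (-0.95) and Socs5 (-0.82) and Cish (-0.81) in fibroblasts. None of the 4 JAK kinases was called by limma in any fit of I/R against sham (26 tests over 8 fits, 6 with an unadjusted p under 0.05), and of 7 STAT factors Stat3 was, in myeloid cells (0.99, limma adjusted p = 0.0114).

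The shared receptor chain of IL-3, IL-5 and GM-CSF, Csf2rb, was higher in whole-heart sums (2.4) and in cardiomyocytes (1.61), endothelial cells (2.8), fibroblasts (1.96) and myeloid cells (1.46), although reads of its near-identical copy Csf2rb2 may be shared with it. The summed level of neutrophil markers was also higher in I/R than in sham mice, as given above for myeloid cells, fibroblasts, endothelial cells and cardiomyocytes, and their part in the results for Csf2rb and Socs3 was not tested. In the list of 6 genes that holds Csf2rb, 2 of 5 tested were called higher and 1 lower in both whole-heart sums and myeloid cells. Tslp, a cytokine that signals with Il7r, was lower in whole-heart sums (-1.16, limma adjusted p = 0.0232), fibroblasts (-1.42) and myeloid cells (-3.13). Of 17 genes of IL-1 and IL-18 receptor signalling, Irak4 was higher in whole-heart sums (1.03), Nfkbiz (0.98) and Myd88 (0.79) in fibroblasts and Nfkbia (2.09) in myeloid cells, where Nfkbiz was lower (-0.95), and limma called 0 of 16 in cardiomyocytes and 0 of 17 in endothelial cells (1 and 4 with an unadjusted p under 0.05). Over all fits this list had 5 calls in 91 tests. Of 6 genes of IL-17 receptor signalling, Traf5 was lower in fibroblasts (-1.33) and myeloid cells (-0.77), where Zc3h12a was higher (1.03), and the list had 1 call in each direction in fibroblasts and 2 in each in myeloid cells. In SBP against I/R limma called 0 of these partners in 283 tests over all lists and fits, 15 of them with an unadjusted p under 0.05.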

How the data were processed

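Nuclei were sequenced with the 10x 3′ v3 chemistry. Per the study's methods, reads were filtered with fastp, counted with Cell Ranger, down-sampled and normalised with Seurat. The submitters' processing notes name Cell Ranger 4.0, STAR, Seurat 3.2.0 and GRCm38, and the methods name other versions of Cell Ranger and Seurat, so the versions used are uncertain. The authors deposited natural log values, ln(1 + 10000 × UMIs / total UMIs of the nucleus), for 23747 genes, which were converted back to UMIs. No model for counts was run on the recovered UMIs, and limma was used on their log2 scale.

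From these, the Scrublet method in scanpy 1.11.5 (Python 3.11.15) marked 126 doublets (0.256% of 49171 nuclei), too few for the caller to be taken as working, which were removed. Clusters came from the Leiden method at resolution 1 (2000 variable genes without the members, 30 components, 20 neighbours), with mural and Schwann cells split again at 0.2. Names were rebuilt here, and 72.2% of the nuclei had the same type by marker score. UMIs were summed per mouse and type (20 nuclei or more), scaled with TMM factors and fitted as log2(CPM + 1) with limma 3.58.1 (R 4.3.3; trend, robust). Fold changes on this scale understate those of low genes. The filter on low values asked for 15 UMIs in all and, in 3 samples, a CPM worth 10 UMIs of the median library. The statistics were also run on simulated counts without differences in cell mix between mice, so that run gives no error rates for these data. Values by mouse are given for the 20 called members with the smallest adjusted p, the 3 most abundant members of each type and 13 well known members, with others by range. Members, lists and tests were chosen with earlier results of these data known. The labels name separate samples without saying more, so p-values measure the spread between these samples. Gene positions are from GENCODE vM21 (70 of 70 members matched). On the same strand 9 members overlap another gene, and on the other strand 27 do.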

Additional observations from a re-analysis of the deposited data

Results flagged for a closer look

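The effect of I/R on 5 members was called different between cell types by a test of the difference itself (limma, log2(CPM + 1) scale, first type minus second), out of 6 pairs of types tested. This scale understates changes at low levels, such as those of Il7r outside myeloid cells and Il17d in cardiomyocytes. Its part in the size of the differences was not tested. For Il7r the difference was -3.62 between cardiomyocytes and myeloid cells, -2.81 between endothelial and myeloid cells and -3.16 between fibroblasts and myeloid cells. For Il15ra it was 1.17 between cardiomyocytes and fibroblasts and -2.3 between fibroblasts and myeloid cells. Il13ra1 gave -1.49 between cardiomyocytes and fibroblasts and 1.45 between fibroblasts and myeloid cells. Il17d gave 1.74 between cardiomyocytes and fibroblasts, and Il2rg gave -1.37 between endothelial and myeloid cells. Over all genes, 2.19% were called for cardiomyocytes minus fibroblasts and 5.57% for cardiomyocytes minus myeloid cells. The share was 3.8% for endothelial minus myeloid cells and 6.6% for fibroblasts minus myeloid cells. Members called were 3 of 26, 1 of 19, 2 of 21 and 3 of 20 in that order. With 1 library left out, Il15ra against cardiomyocytes lost its call in 9 of 9 fits, Il17d in 7, Il2rg in 6 and Il13ra1 in 4 and 2. With 3 mice per group, no single mouse was screened as an outlier.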

How the results depend on the processing

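None of the results recomputed changed direction. Over the log2 fold changes called in I/R against sham and the settings tried, 280 values kept and 80 lost their side of the threshold with 1 sample left out, and 316 kept and 53 lost it under the other settings. Counts of members called that moved by over 1.5 times follow. With cell types from marker scores, I/R against sham gave 1 in cardiomyocytes and 2 (Il18rap, Il4ra) in dendritic cells, and SBP against sham 1 in endothelial cells. Without a filter on low values, I/R against sham gave 3 in dendritic cells and 1 (Il1r1) in T cells, and SBP against sham 3 in dendritic cells. With only the samples compared in the fit, I/R against sham gave 1 in cardiomyocytes, 6 in myeloid cells and 1 (Il18r1) in T cells, and SBP against sham 12 in whole-heart sums, 2 in cardiomyocytes, 4 in endothelial and 10 in myeloid cells. A pseudocount of 5 CPM left 0 in cardiomyocytes for SBP against sham. Total UMIs only gave 1 (Il18r1) in T cells for I/R against sham and 0 in cardiomyocytes for SBP against sham. That scaling raised the share of all calls that were higher from 55.2% to 66.6% in fibroblasts and from 33.3% to 50% in T cells for I/R, and from 47.8% to 67% in whole-heart sums for SBP against sham. Without the Acod1 and Fpr1 cluster, an alternative chosen after seeing the data, SBP against sham gave 8 in whole-heart sums. I/R against sham moved by less than 1.5 times there, to 11 in whole-heart sums and 8 in myeloid cells. Calls in I/R against sham that other settings ended were, in whole-heart sums, Il18 and Il33 (3 of 9 settings each), Il1f9, Il1rn and Il31ra (2 each) and Il6ra (1), with Il31ra falling short of the fold threshold under a pseudocount of 5 CPM. They were Il4ra (2) in cardiomyocytes, Il17ra (3) and Il4ra (1) in endothelial cells, Il18rap (6), Il12a (4) and Il6st (3) in fibroblasts and, of 10 settings, Il18rap (8), Il1rap (7) and Il2rg (6) in myeloid cells. The differences between types of Il15ra and Il13ra1 (both cardiomyocytes minus fibroblasts) and Il2rg lost their calls under 2, 1 and 1 of 2 settings.

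With the replicate number as a block, I/R against sham gave 2 in endothelial cells, SBP against sham 3 in whole-heart sums, 0 in cardiomyocytes and 1 in endothelial cells, and the differences between types 1 for cardiomyocytes minus fibroblasts, 2 for cardiomyocytes minus myeloid and 1 for endothelial minus myeloid cells (the last 3 chosen after seeing the data). Correlations of same-numbered samples ran from -0.4 to 0.3, against -0.31 to 0.46 for other pairs, so the numbers were not taken to pair the mice.

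With 1 sample left out, I/R against sham gave 7 in whole-heart sums when sham replicate 1 was dropped and 16 at most, when I/R replicate 3 was, 1 to 4 in cardiomyocytes, 1 to 5 in endothelial cells, 8 to 11 in fibroblasts, 7 to 12 in myeloid cells and 0 in dendritic and T cells. SBP against I/R gave 0 to 1 in myeloid cells and 0 elsewhere. SBP against sham gave 0 (without sham replicate 3, SBP replicate 1 or SBP replicate 3) to 9 (without I/R replicate 2), 0 to 1, 0 to 3, 3 to 7 and 4 to 10 in the same order of the first 5. The differences between types, left out one sample at a time after seeing the data, gave 0 to 2 for cardiomyocytes minus fibroblasts, 0 to 2 for cardiomyocytes minus myeloid, 0 to 2 for endothelial minus myeloid, 2 to 4 for fibroblasts minus myeloid cells and 0 for the other 2 pairs. With 6293 to 97289 UMIs per mouse, B cells were too shallow to test any member. Bounds and ratios without I/R replicate 2 or SBP replicate 1, and levels by cluster within the I/R mice, were likewise added after seeing the data.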
